A study of Homo sapiens with 2 samples.

Results

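Messenger RNA of 10 genes of the Notch pathway was examined in a derivative of U2OS, which is a cell line from a human osteosarcoma. The 10 genes are the receptors NOTCH1, NOTCH2, NOTCH3 and NOTCH4, the ligands JAG1, JAG2, DLL1, DLL3 and DLL4, and the target gene HES1. They were chosen by name, and all 10 were found among the 28340 genes that carried a symbol in both libraries and had no failed status. The line, G1S-CCPM-Cas9, is labelled as recombinant U2OS that carries Cas9, the nuclease used for genome editing. Both libraries came from untreated cells kept in McCoy's 5A at 37 °C under 5% CO2, with 1% glutamine, 10% serum from fetal calves and 500 µg/mL geneticin, so the series holds 1 group of 2 replicates and no contrast between conditions. Whether they were grown as separate cultures is not in the labels, and their spread may be technical only. Levels are FPKM as deposited, that is, fragments scaled to transcript length and to the number of mapped fragments, each with a lower and an upper confidence bound. Relative depth was close, with median coverage of 5.78 per unit of FPKM in replicate 1 against 5.57 in replicate 2; absolute depth is unknown.

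Notch receptors are single-pass membrane proteins that are activated by ligands on neighbouring cells. Ligand binding and pulling lets ADAM proteases and then gamma-secretase cut the receptor, and the freed intracellular domain enters the nucleus, where it joins the DNA-binding protein RBPJ and a Mastermind-like coactivator. RBPJ without Notch recruits corepressors, and HES and HEY genes, which encode basic helix-loop-helix repressors, are the best known targets. In bone, Notch signalling acts on osteoblast precursors and their maturation. In blood vessels, DLL4 and NOTCH4 are known as endothelial members of the family.

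The sequences shown first are promoter stretches that hold a word RBPJ is known to bind, and a coding stretch of NOTCH2 beside that of a near-identical partial copy. Binding of RBPJ was not measured. RBPJ binds DNA words of the form GTGGGAA. Both strands were searched for this word, and for the core TGGGAA that lies inside it, in RefSeq promoters (GRCh38.p14) from 250 bases before to 50 bases after each gene's start. GTGGGAA was present in 2194 of 35116 promoters (6.25%) and TGGGAA in 24.0%. HES1 held GTGGGAA 85 bases upstream of its start, with a further TGGGAA 70 bases upstream. HES4 held it 77 bases upstream, and HES5 held it 81 bases upstream and, on the other strand, 224 bases upstream. The 250 bases before the start of these 3 genes are printed 5′ to 3′ on the gene's strand because HES1 was expressed while HES4 and HES5, with the same word at nearly the same distance, were listed at 0. HES1 lies at chr3:194135898-194136147 on the plus strand, HES4 at chr1:1000098-1000347 and HES5 at chr1:2530264-2530513 on the minus strand. Capitals mark the words found.
HES1: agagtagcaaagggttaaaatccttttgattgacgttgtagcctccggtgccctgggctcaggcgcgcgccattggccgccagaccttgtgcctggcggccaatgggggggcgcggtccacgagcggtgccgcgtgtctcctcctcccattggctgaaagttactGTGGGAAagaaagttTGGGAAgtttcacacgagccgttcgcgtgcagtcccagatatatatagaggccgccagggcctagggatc
HES4: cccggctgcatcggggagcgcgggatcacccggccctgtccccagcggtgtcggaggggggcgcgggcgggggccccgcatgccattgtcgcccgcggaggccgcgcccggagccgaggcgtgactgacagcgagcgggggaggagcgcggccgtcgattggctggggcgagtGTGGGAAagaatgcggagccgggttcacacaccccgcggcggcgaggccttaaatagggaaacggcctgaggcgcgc
HES5: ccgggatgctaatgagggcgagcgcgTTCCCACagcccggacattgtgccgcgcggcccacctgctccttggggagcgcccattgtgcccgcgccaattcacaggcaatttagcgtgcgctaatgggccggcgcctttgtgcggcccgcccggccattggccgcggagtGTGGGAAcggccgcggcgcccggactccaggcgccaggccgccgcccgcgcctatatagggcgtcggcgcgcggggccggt
The word GTGGGAA was also found at HEY2, 213 and 4 bases upstream, and at HEYL, 178 bases upstream. It was not among the letters of this window at NOTCH1, NOTCH2, NOTCH3, NOTCH4, JAG1, JAG2, DLL4, HES2, HES3, HES6, HES7 or NRARP. The core TGGGAA outside GTGGGAA, seen at HES1, also occurred at HES3, 114 bases upstream on the other strand, and at HEYL, 99 bases upstream. DLL1, DLL3 and HEY1 were not matched in the promoter table.

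NOTCH2 has near-identical partial copies on the same chromosome, of which the transcript tables hold NOTCH2NLA. Over 634 aligned coding bases of GENCODE 29, NOTCH2 and NOTCH2NLA differed at 6 bases (99.05% identity). Of the 11340 words of 50 bases in the NOTCH2 transcript, 457 (4.03%) also occurred in NOTCH2NLA transcripts, and 527 (4.65%) in 5 other genes in all. NOTCH2NLB, NOTCH2NLC and NOTCH2NLR were not matched in the tables, and how fragments from them were assigned is unknown. The 90 coding bases printed here hold 2 of the 6 differences, in capitals, the most in any aligned stretch of that length. They are at chr1:120005402-120005491 in NOTCH2 and chr1:146164824-146164913 in NOTCH2NLA (GRCh38, minus strand for both).
NOTCH2: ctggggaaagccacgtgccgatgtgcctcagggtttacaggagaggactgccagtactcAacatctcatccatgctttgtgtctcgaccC
NOTCH2NLA: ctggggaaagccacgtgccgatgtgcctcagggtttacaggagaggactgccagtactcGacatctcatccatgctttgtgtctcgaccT
Fragments from stretches that hold no difference can be assigned to either gene. NOTCH2NLA, which encodes a short secreted relative of the receptor's first repeats, was at 1.36 FPKM in replicate 1 and 2.71 in replicate 2. NOTCH2 was 27.7 and 16.3 times as high as NOTCH2NLA in replicates 1 and 2 by the whole NOTCH2 locus, and 3.998 and 1.94 times by its transcripts named by accession. Elsewhere among the 10 genes, 421 words of JAG2 (7.28%) also occurred in the gene AL512356.1, 50 words of NOTCH4 in GPSM3 and 32 words of JAG1 in AL050403.2.

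By the FPKM of its whole locus NOTCH2 was the receptor of highest level, NOTCH1 and NOTCH3 followed, and NOTCH4 was below FPKM 1. This order rests on 1 predicted transcript of the NOTCH2 locus, XM_005270902.2, without which NOTCH2 was at 5.44 and 5.25 FPKM in replicates 1 and 2, below NOTCH3. The span of XM_005270902.2 overlaps most of that of NM_024408.3, the curated full-length transcript. How fragments from shared stretches were divided between these transcripts is not known. Values without XM_005270902.2, here and elsewhere, may therefore leave out NOTCH2 fragments and are not an estimate of the NOTCH2 level. The NOTCH2 transcripts named by accession span GRCh38 chromosome 1, 119911553 to 120069703, and XM_005270902.2 reaches to 120100748. With all of these counted, NOTCH2 was at 37.7 FPKM in replicate 1 (bounds 36.3 to 39.1) and 44.2 in replicate 2 (bounds 42.5 to 45.9), a mean of 40.9 ± 4.60 (SD, n = 2). It ranked 2250th and 1689th among the 28340 genes. NOTCH1 (chromosome 9, 136494444 to 136545786), known for its part in T cell leukaemia, was at 13.4 FPKM (13.1 to 13.7) and 14.2 (13.9 to 14.5), a mean of 13.8 ± 0.607. NOTCH2 thus stood 2.82 times above NOTCH1 in replicate 1 and 3.10 times above it in replicate 2, and the bounds of these genes were apart in both libraries.

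NOTCH3, the receptor best known from vascular smooth muscle cells (chromosome 19, 15159633 to 15200981), was at 6.67 FPKM (6.36 to 6.98) and 5.97 (5.65 to 6.29), a mean of 6.32 ± 0.493. NOTCH1 exceeded NOTCH3 by a factor of 2.01 in replicate 1 and 2.38 in replicate 2. NOTCH4 (chromosome 6, 32194843 to 32224067) was at 0.206 FPKM (0.162 to 0.250) and 0.261 (0.212 to 0.309). Its locus was joined with GPSM3, a regulator of G-protein signalling at 3.16 and 3.18 FPKM, and the value given is that of the NOTCH4 reference transcript alone. In replicate 1 that locus also held 2 assembled transcripts with no symbol, at 0.781 and 0.641 FPKM, which were not counted for either gene. The receptors summed to 57.9 FPKM in replicate 1 and 64.7 in replicate 2. NOTCH2 made up 65.04% and 68.3% of that sum, NOTCH1 23.1% and 22.0%, NOTCH3 11.5% and 9.23%, and NOTCH4 0.356% and 0.403%. Without XM_005270902.2, an alternative added after seeing the data, NOTCH2 was 21.2% and 20.4% of the sum and NOTCH1 52.1% and 55.4%, and NOTCH1 exceeded NOTCH2 by a factor of 2.46 and 2.71.

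JAG1 was the only ligand above FPKM 1 in both libraries, and the ligands summed to 10.2 and 11.7 FPKM, less than the receptors. JAG1 (chromosome 20, 10637684 to 10674046), a Jagged-type ligand, was at 8.04 FPKM in replicate 1 (7.77 to 8.31) and 10.1 in replicate 2 (9.83 to 10.4), a mean of 9.09 ± 1.49. It held 78.6% and 86.6% of the ligand sum. JAG2, the other Jagged ligand (chromosome 14, 105140981 to 105168824), was at 0.805 FPKM (0.715 to 0.896) and 0.644 (0.561 to 0.727). The ratio of JAG1 to JAG2 was 9.98 in replicate 1 and 15.7 in replicate 2.

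Among the Delta-like ligands DLL3 was highest. DLL3, which is known to act within the cell on its own Notch receptors rather than as a ligand for neighbours (chromosome 19, 39498917 to 39508481), was at 1.32 FPKM (1.13 to 1.52) and 0.843 (0.685 to 1.00). It lay above the detection floor of FPKM 1 in replicate 1 and below it in replicate 2. DLL4 (chromosome 15, 40929333 to 40939060) was at 0.0529 FPKM (0.0236 to 0.0823) and 0.0803 (0.0434 to 0.117). Both values were more than 100 times below JAG1, which exceeded DLL4 by a factor of 152 in replicate 1 and 126 in replicate 2. DLL1 (chromosome 6, 170282200 to 170290727), a ligand that can activate receptors on neighbouring cells, was listed at 0 in both libraries. The highest upper bound of a DLL1 transcript was 0.00994 in replicate 1 and 0.0103 in replicate 2. Its span overlaps that of FAM120B, at 13.2 and 15.1 FPKM, and a 0 in these tables may be an estimate that failed, so the level of DLL1 is not known beyond that listing. In bulk RNA, fewer expressing cells and less RNA per cell cannot be told apart, so a low value may belong to all cells or to a few. The sum of the receptors exceeded that of the ligands by a factor of 5.67 in replicate 1 and 5.52 in replicate 2, or 2.51 and 2.197 without XM_005270902.2 of NOTCH2.

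HES1, a repressor gene and a common readout of Notch activity that other pathways also regulate (chromosome 3, 194136142 to 194138612), was at 14.9 FPKM (14.1 to 15.7) and 19.1 (18.2 to 20.04), a mean of 17.0 ± 2.98. It was second to NOTCH2 among the 10 genes in both libraries, and highest where XM_005270902.2 was left out of NOTCH2. The rest of its family was listed at lower levels. HES6, which opposes HES1 in other cell types, was at 3.02 and 1.96 FPKM, most of it in an assembled transcript, while its reference transcript NM_018645.5 was at 0.980 and 0.385. HEY1, a relative of HES1 with a role in vessels and bone, was at 1.10 and 1.12 FPKM. HES7, an oscillating gene of somite formation, was at 0.478 and 0.322 FPKM, HES2 at 0.0290 and 0.0804, and HEYL at 0.0100 and 0.00416. HES3, HES4, HES5 and HEY2 were listed at 0 in both libraries. As for DLL1, a listed 0 may be an estimate that failed, so their levels are not known beyond that listing. Of the 9 other HES and HEY genes, 2 (22.2%) were at FPKM 1 or more in both libraries, beside 59.1% of protein-coding genes. HES4, HES5, HEY2 and HEYL thus carried GTGGGAA in the promoter window, as HES1 did. HEYL was near 0, and HES4, HES5 and HEY2 are known only by a listed 0. HES6, without the word, was at FPKM 1 or more in both libraries only with its assembled transcript counted. HEY1, above the HES6 reference transcript, was not matched in the promoter table.

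**Figure D1:**
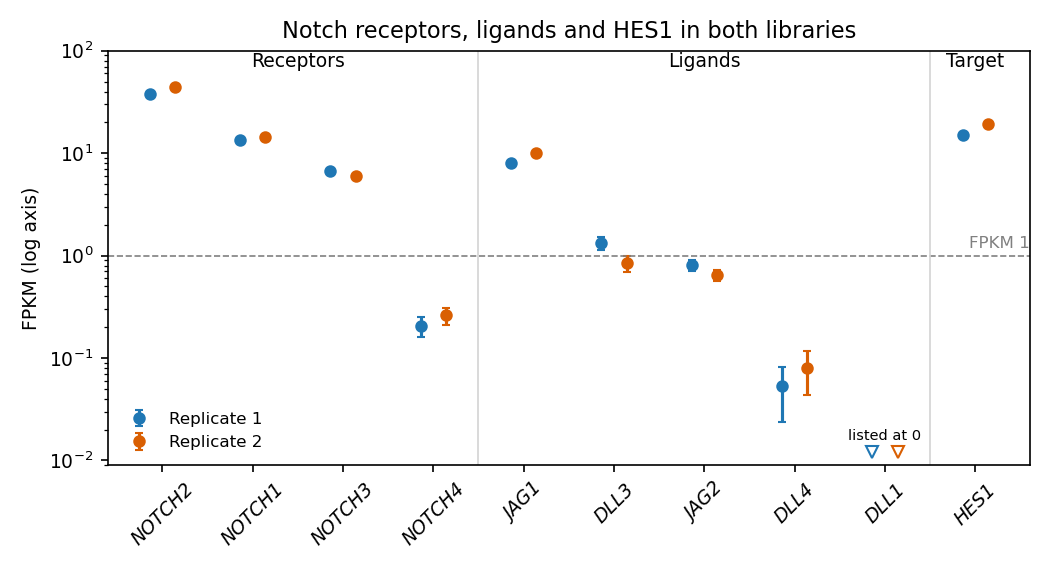
FPKM of the 10 genes (log axis) in replicate 1 (blue) and replicate 2 (orange), grouped by role, with the deposited confidence bounds as bars and open triangles for a listed 0. NOTCH2, by its whole locus, is highest at 37.7 and 44.2, 5 genes lie above the dashed line at FPKM 1 in both libraries, and DLL1 is listed at 0.

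Of the 10 genes, 5 (50%) were at FPKM 1 or more in both libraries, against 41.6% of all named genes and 59.1% of protein-coding genes, so the share lies between these backgrounds. The 5 were NOTCH1, NOTCH2, NOTCH3, JAG1 and HES1. The order of levels was the same in both libraries: NOTCH2, HES1, NOTCH1, JAG1, NOTCH3, DLL3, JAG2, NOTCH4, DLL4 and DLL1. Without XM_005270902.2 NOTCH2 took the fifth place in both, between NOTCH3 and DLL3, and the others kept their order. Of the 9 pairs of neighbours in that order, 8 had bounds that were apart in both libraries. DLL3 and JAG2 had bounds that overlapped in replicate 2, where the ratio was 1.31 after 1.64 in replicate 1. The narrowest steps among the pairs that were apart were HES1 over NOTCH1, by 1.11 and 1.34 times, and JAG1 over NOTCH3, by 1.21 and 1.70 times. The median of the 10 mean levels was 3.70 FPKM, with the 4 genes below FPKM 1 in both libraries included. Over all genes that reached FPKM 1 in either library the median was 10.8. That set leaves out such low genes, so these medians cannot be set against each other.

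The transcript tables divide these genes into 18 reference transcripts, of which 12 were above 0 in both libraries and 5 were at 0 in both. No assembled transcript was counted for any of the 10 genes. Most of the NOTCH2 level was given to XM_005270902.2, a predicted transcript whose upstream end lies 31045 bases beyond that of NM_024408.3, the curated full-length transcript. XM_005270902.2 (chromosome 1, 119912055 to 120100748) was at 32.2 FPKM (30.9 to 33.6) and 39.0 (37.3 to 40.6), which was 85.6% and 88.1% of NOTCH2. NM_024408.3 was at 5.44 FPKM (5.14 to 5.74) and 5.25 (4.95 to 5.54), or 14.4% and 11.9%. The accession XM_005270902.2 is not paired with a gene in the NCBI table, and it was counted for NOTCH2 because the files place it in 1 locus with the 2 curated NOTCH2 transcripts. NM_001200001.1, which encodes a shortened receptor, was listed at 0, as were the predicted transcripts XM_005270901.1 and XM_006710667.1.

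NOTCH3 differed in this respect between the libraries. Its predicted transcript XM_005259924.2 was at 1.31 FPKM (1.17 to 1.45) in replicate 1, 19.7% of the gene, and was listed at 0 in replicate 2 with an upper bound of 0.00353. NM_000435.2 was at 5.36 and 5.97 FPKM. For JAG2 the shorter NM_145159.2 made up 47.2% and 31.1%, at 0.380 and 0.201 FPKM, and NM_002226.4 was at 0.425 and 0.443. DLL3 was divided in nearly the same way in both libraries, with NM_203486.2 at 63.0% and 63.3% and NM_016941.3 at 37.0% and 36.7%. NOTCH1, NOTCH4, JAG1, DLL4 and HES1 each had 1 reference transcript.

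**Figure D2:**
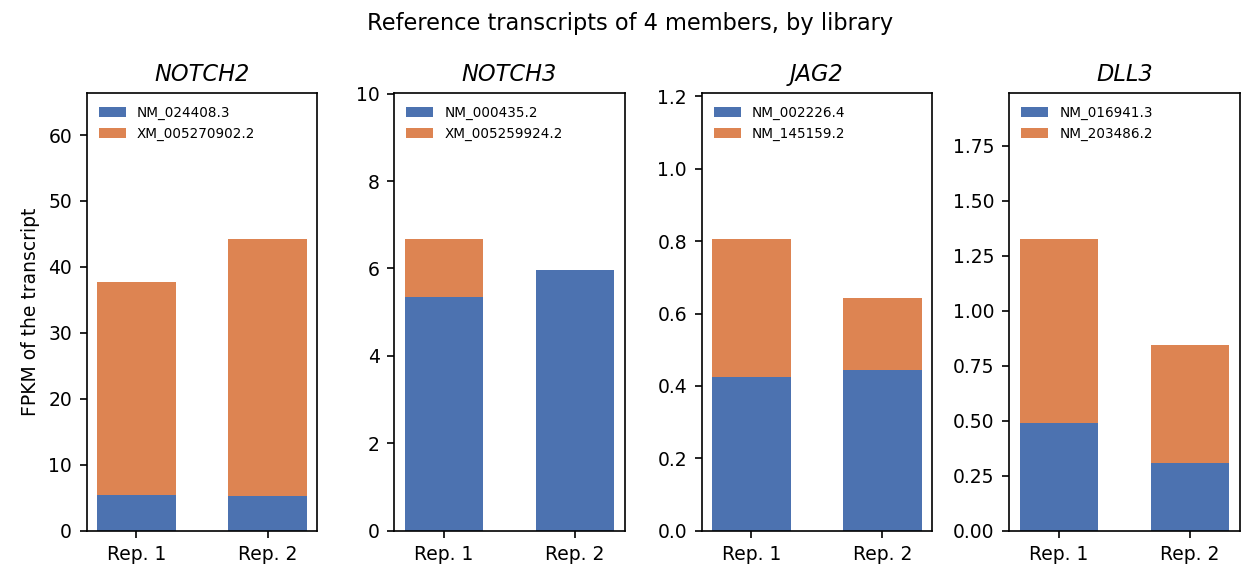
FPKM of the reference transcripts above 0 for NOTCH2, NOTCH3, JAG2 and DLL3 as stacked bars, 1 bar per library, each panel with its own axis from 0. XM_005270902.2 forms most of the NOTCH2 bar in both libraries (85.6% and 88.1%), and XM_005259924.2 of NOTCH3 appears in replicate 1 only.

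Around the receptors and ligands, 87 further pathway genes were measured, and 66 (75.9%) were at FPKM 1 or more in both libraries, beside 41.6% of all named genes and 59.1% of protein-coding genes. All 9 genes of receptor-cleaving proteases passed. APH1A and PSENEN, subunits of gamma-secretase, were at 68.7 and 49.6 FPKM and at 54.0 and 35.6 in replicates 1 and 2. ADAM10, which makes the ligand-dependent cut, was at 33.7 and 38.9, and FURIN, which cuts the maturing receptor, was at 37.6 and 31.4. Their values ran from 31.4 to 68.7 FPKM, a range that includes both values of NOTCH2.

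Genes that attach sugars to the receptors passed in 8 of 9 cases. POFUT1, which adds O-fucose, was at 28.9 and 26.0 FPKM. Among the Fringe enzymes, which extend that fucose and change how receptors respond to Delta and Jagged ligands, LFNG was at 29.8 and 25.2, RFNG at 28.96 and 18.9, and MFNG at 1.23 and 0.902. LFNG exceeded MFNG by a factor of 24.2 in replicate 1 and 28.0 in replicate 2. GXYLT1, a xylosyltransferase, was at 15.3 and 18.2.

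Of the 7 genes for ubiquitination and endocytosis of ligands, 6 passed. MIB1, the ubiquitin ligase for Jagged and Delta ligands, was at 13.8 and 18.1 FPKM, and NEURL1B at 22.1 and 24.8, while NEURL1 was at 0.655 and 0.420. The endocytic adaptor EPN1 was at 70.1 and 51.1 and the dynamin DNM2 at 26.5 and 22.4. The non-canonical ligands, which lack parts of the classical ligands, were mixed, with 4 of 8 passing. MFAP2 and MFAP5, microfibril proteins, were at 99.4 and 91.0 FPKM and at 45.7 and 26.7. CCN3 was at 11.2 and 9.64, and the contactin CNTN1 at 1.81 and 2.02. DLK2 was at 1.87 and 0.818, CNTN6 at 0.293 and 0.338, DNER at 0.0445 and 0.0310, and DLK1 was listed at 0 in both.

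Of the nuclear activator genes, 8 of 9 passed. SNW1 was at 38.5 and 42.8 FPKM, and the acetyltransferases EP300, KAT2A and CREBBP were at 16.04 and 22.1, at 17.8 and 16.1, and at 12.7 and 16.2. MAML3, a Mastermind-like coactivator, lay just under the floor at 0.997 and 0.998. RBPJ itself, added here for its role and outside the naming rule, was at a mean of 13.1 ± 1.26. Of the RBPJ corepressors 8 of 10 passed, among them FHL1 at 58.7 and 55.6, CTBP1 at 49.7 and 38.5, and NCOR1 at 22.7 and 18.4. BEND6 was at 0.251 and 0.198, and RBPJL, a relative of RBPJ, was listed at 0. Both sides of the RBPJ switch were therefore present as mRNA.

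The Groucho family, which HES proteins recruit to repress genes, passed in 4 of 5 cases. TLE5, a short family member that lacks the repression domains of the others, was at 121 and 95.9 FPKM. TLE1 was at 19.8 and 17.7, TLE3 at 12.4 and 12.6, TLE2 at 10.3 and 8.55, and TLE4 at 0.0837 and 0.0655. Of the 11 genes of receptor turnover 10 passed, with the ubiquitin ligase ITCH at 30.9 and 30.8, the Notch antagonist NUMB at 25.3 and 26.0, NEDD4 at 16.6 and 19.4, and DTX3L at 14.9 and 15.9. NUMBL was listed at 0 by its own accession, while XM_006723471.1, an unnamed reference transcript in the same locus, was at 8.76 and 6.99, so its level is uncertain. A further unnamed transcript of that locus, XM_005259274.1, outside the span of the NUMBL accession, was at 16.9 and 12.8.

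Among further genes reported as Notch targets in some cell types, 6 of 9 passed, and these are also regulated by many other signals. ID1 was at 194 and 163 FPKM, CCND1 at 70.6 and 73.0, MYC at 66.8 and 63.0, and ID3 at 71.3 and 49.9. NRARP, which encodes a feedback inhibitor of Notch and is a close readout of the pathway, was at 0.0596 and 0.0675. PTCRA, a T cell gene, was at 0.0234 and listed at 0, and IL2RA was listed at 0 in both libraries. HES1 and NRARP thus stood far apart, at a mean of 17.0 against 0.0635 FPKM.

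**Figure D3:**
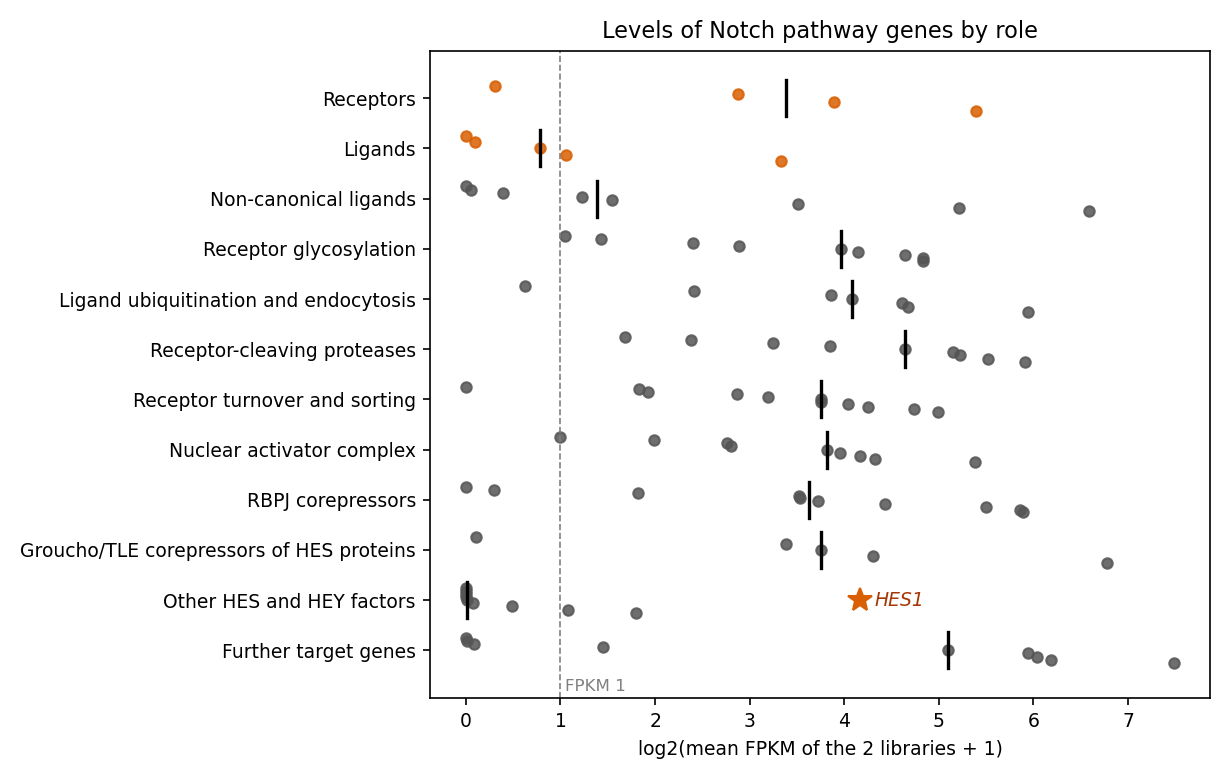
Level of each pathway gene as log2 of the mean FPKM of the 2 libraries plus 1, by role; orange points are the receptors and ligands, the star is HES1, grey points are the other genes and black bars are group medians. HES1 (mean 17.0 FPKM) lies apart from the other HES and HEY genes, of which 2 of 9 are at FPKM 1 or more in both libraries.

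Between the libraries, 0 of the 6 genes of the 10 that reached FPKM 1 in at least 1 library counted as differing. The rule was an absolute log2 ratio of (FPKM + 1) of 1 or more with bounds apart. The other 4 lay below FPKM 1 in both libraries and could not count. Of all genes that reached FPKM 1 in either library and have bounds in both, 152 of 12272 (1.24%) counted. By direction, 0.497% were higher in replicate 2 and 0.742% in replicate 1. A further 179 such genes of joined loci lack bounds and could not count. No p-value was computed between replicates of 1 group. All 6 of the 10 genes that reached FPKM 1 in at least 1 library had bounds apart between the libraries at some size, as 56.4% of all such genes did. Of these 6, 4 were higher in replicate 2, where 21.9% of all genes were higher with bounds apart, and 2 in replicate 1, against 34.4%. HES1 (log2 ratio 0.34, replicate 2 over replicate 1), JAG1 (0.30), NOTCH2 (0.22) and NOTCH1 (0.08) were higher in replicate 2, and NOTCH3 (-0.14) and DLL3 (-0.33) were higher in replicate 1. The central 95% of all ratios ran from -0.76 to 0.63, so all 6 lay within it.

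GC content moved with these ratios. HES1, JAG1 and NOTCH2 transcripts have 49.9%, 49.6% and 49.4% GC, and NOTCH1, NOTCH3 and DLL3 have 62.9%, 63.1% and 64.9%. Over all genes the median ratio was -0.08 at 48 to 52% GC (1459 genes) and -0.32 at 61 to 65% GC (947 genes). After the median ratio of genes of like GC content was removed, the ratio of all 6 was above 0, at 0.43 for HES1, 0.40 for NOTCH1, 0.35 for JAG1, 0.27 for NOTCH2, 0.18 for NOTCH3 and 0.04 for DLL3. Removing the median ratio of genes of like length instead put NOTCH1 at -0.16 and NOTCH2 at -0.02, so the direction of 4 of the 6 depends on the correction, while HES1 and JAG1 were above 0 under both. Scaling both libraries to a common sum raised the median ratio of all genes by 0.16 and put NOTCH3 at 0.02 and DLL3 at -0.24. The part of GC content in the difference between libraries was not tested.

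**Figure D4:**
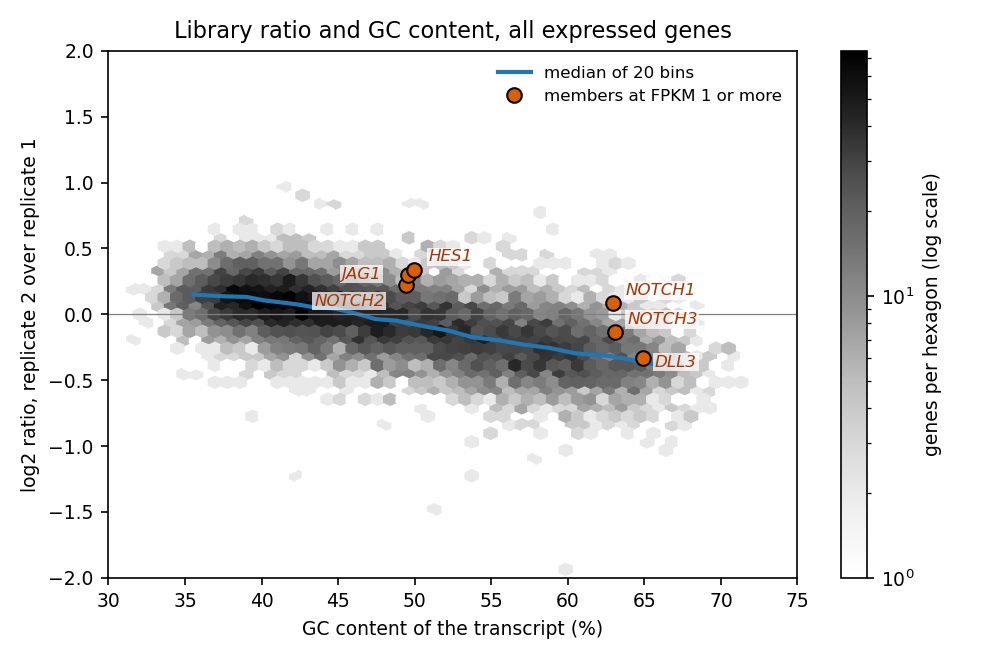
Log2 ratio of (FPKM + 1), replicate 2 over replicate 1, against transcript GC content for genes that reached FPKM 1 in either library; grey shade is the number of genes (log scale), the blue line joins medians of 20 bins, and orange points are the 6 Notch genes at FPKM 1 or more. The 116 genes with a ratio beyond 2 in either direction are not drawn, and all 6 points lie at or above the blue line.

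The genes nearest in level over the 2 libraries, by Euclidean distance in log2(FPKM + 1) among 18913 protein-coding genes, were ARHGAP29, BNIP3L and KIF5B for NOTCH2, all at a distance of 0.04. They stood at 37.5 and 43.0, at 38.7 and 44.3, and at 37.6 and 43.0 FPKM. For JAG1 they were RAD50 (8.02 and 10.1 FPKM), SHISA9 (8.06 and 10.2) and BICC1 (8.04 and 10.0). With 2 libraries of 1 group, nearness in level says only that the values are alike.

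Markers of the labelled tissue were partly present, with 5 of 10 bone lineage genes at FPKM 1 or more in both libraries. SPARC, a bone matrix gene, was at 312 and 297 FPKM, COL1A1 at 69.2 and 82.6 and RUNX2 at 2.25 and 3.03, while COL1A2, which encodes the partner chain of COL1A1 in type I collagen, was at 0.0679 and 0.0809. ALPL was at 2.41 and 1.76 and SPP1 at 2.00 and 1.67. SP7, an osteoblast transcription factor, was at 0.0104 and 0.0108, DMP1 at 0.0108 and 0.0223, and IBSP was listed at 0. BGLAP was also listed at 0, but its locus is joined with PMF1 and gives BGLAP no gene-level bounds, so its level is uncertain. Endothelial markers, listed because DLL4 and NOTCH4 are known from that cell type, passed in 1 of 9 cases, and their summed level was 2.83 FPKM in replicate 1 and 2.26 in replicate 2. ERG made up most of it, at 1.69 and 1.25, PECAM1 was at 0.0694 and 0.0378, and no endothelial marker was listed at 0 in both libraries. Haematopoietic and neural markers passed in 0 of 6 and 0 of 5 cases. Mural markers, a cell type in which NOTCH3 is known, passed in 4 of 6 cases (66.7%), also near the share of protein-coding genes. CNN1 was at 20.8 and 17.3, ACTA2 at 11.6 and 12.3, PDGFRB at 4.15 and 3.36 and RGS5 at 1.32 and 1.70. DES was at 0.237 and 0.219, and MYH11 was listed at 0. The span of MYH11 overlaps that of the expressed gene NDE1, so its level is not known beyond that listing. ACTA2 overlaps the expressed gene FAS.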

How the data were processed

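Poly(A) RNA of 2 replicate libraries of 1 untreated line was sequenced after directional library preparation, per the labels' protocols. The submitters' processing notes name Trimmomatic 0.32, FastQC 0.11.2, TopHat2 2.0.13, Bowtie2 2.2.3, Cufflinks 2.2.1 and the build GRCh38; for annotation release and use of strand: not given in the sources used here. The authors deposited FPKM with confidence bounds, whose level the files do not state, and the deposited transcript tables hold coverage, a signal of read depth per transcript, per the file headers. The bounds hold no spread between libraries.

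Loci without a gene name were named through RefSeq accessions (NCBI table for GRCh38.p14, then GENCODE 29). A gene's FPKM is that of its locus, or the sum of its own reference transcripts where a locus held several symbols. Genes of failed status (46) were left out. Locus starts in the files count from 0, and 1 was added. Detection means FPKM 1 or more. GC content and shared words of 50 bases come from GENCODE 29 transcripts. In groups of pathway genes, the 4 highest and every gene under FPKM 1 in either library are named, except 1 gene that is not reported here. The lists and members were chosen with earlier results of these data known. Alternatives were another floor, a pseudocount of 0.1, scaling to a common sum, reference transcripts alone, any status, removal of length or GC trends, NOTCH2 without its predicted transcript and each library alone. Python 3.11.15, pandas 2.3.3, numpy 2.4.6, scipy 1.17.1, matplotlib 3.10.9 and Biopython 1.88 were used.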

Additional observations from a re-analysis of the deposited data

How the results depend on the processing

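The count of 5 detected genes was also found at a floor of FPKM 5, after scaling to a common sum, with reference transcripts only and with entries of any status; at a floor of FPKM 0.5 it was 7, with JAG2 and DLL3 added. With a lower bound above 0 as the criterion it was 9, every member except DLL1. With NOTCH2 as its transcripts named by accession, an alternative added after seeing the data, its mean fell from 40.9 to 5.34 FPKM, 5 genes were detected and 8 of 9 neighbour pairs had bounds apart in both libraries. Either library alone gave 5 to 6 detected genes of the 10, 66 to 68 of the further pathway genes, and 8 to 9 of 9 neighbour pairs with bounds apart. The number of all genes counted as differing was 152, and became 259 with a pseudocount of 0.1 and 100 after removal of the GC trend, which was likewise chosen after seeing the data; the cause was not tested. For the 6 of the 10 genes that reached FPKM 1 in at least 1 library, the count was 0 in each alternative that keeps the bounds. No paired analysis was possible because the series holds 1 group. With 2 libraries of unknown absolute depth, levels below FPKM 1 are the least certain: the deposited coverage was 1.19 and 1.45 for NOTCH4 and 0.306 and 0.449 for DLL4.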
